A study of Mus with 4 samples.

Results

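Circular RNAs (circRNAs) arising from 118 mouse genes with ubiquitin ligase symbols were examined in ocular tissue. A gene was taken when its symbol began with Rnf, Trim, Fbxo, Fbxw, Fbxl, Klhl or Asb followed directly by a digit. A circRNA was taken when such a gene was its single host, which gave 508 of the 44073 circRNAs and 118 of the 7146 single hosts, all of them protein coding. A further 3 circRNAs with a second host were left out. The tissue came from C57BL/6J mice, which were wild type or carried a deletion of VLDLR (a receptor for very-low-density lipoprotein). All animals, controls included, had been kept in 75% oxygen between postnatal day 7 and day 12 (P12). Tissue was collected at P12, directly at the end of the oxygen period, or at P13, after a day in room air. Each of the 4 groups (wild type at P12 and P13, deletion at P12 and P13) held 1 library. How many animals or eyes went into a library, and how the deletion was made, was not given in the sources used here, so that p-values measure the spread between these libraries alone.

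Ubiquitin ligases select proteins and join ubiquitin to them, which often sends the protein to the proteasome. RING-type ligases, among them most Rnf and Trim proteins, bind the ubiquitin-carrying enzyme themselves, whereas the other families supply the exchangeable part of cullin ligases. F-box proteins (Fbxw with WD40 repeats, Fbxl with leucine-rich repeats, Fbxo with other domains) bring substrates to cullin 1 through Skp1, Klhl proteins do so for cullin 3, and Asb proteins for cullin 5. A circRNA forms when a splice donor is joined to an upstream acceptor. The values below count reads across that back-spliced junction, and neither the linear mRNA nor the protein of these genes was measured.

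The libraries held between 299723 and 759063 junction reads, with the deletion libraries the shallower ones. No circRNA of Vldlr was listed (0 junction reads in all 4 libraries), so the deleted gene gave no check of the labels. A batch code in the read identifiers took 1 value per library, with 0 values shared between the genotypes. Whether the libraries of the same genotype shared a value was not compared. The genotype and this batch code cannot be told apart. In the same way, age and return to room air cannot be told apart between the days. A circRNA missing from a library's table is called unlisted. The tables begin at 2 reads, so such a circRNA may have 1 read, or more where the caller dropped it.

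Ligase circRNAs made up an even share of the libraries. Their junction reads were 11248 and 13040 in wild type at P12 and P13, and 5156 and 5865 in the deletion. These are 1.70% (95% Clopper-Pearson interval 1.67 to 1.73), 1.72% (1.69 to 1.75), 1.72% (1.67 to 1.77) and 1.72% (1.67 to 1.76) of the reads, with all intervals overlapping. Such intervals cover counting error alone, since the reads carry no molecular identifiers. The tables listed 362, 368, 242 and 263 ligase circRNAs in the same order of libraries. These were 1.27%, 1.18%, 1.34% and 1.31% of the circRNAs that each library listed. At a common depth of 299723 reads the expected numbers of ligase circRNAs were 273, 272, 242 and 251. The same numbers over all circRNAs were not computed.

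By class, 467 of the 508 circRNAs (91.9%) were exonic and 41 intronic, against 86.5% exonic over all circRNAs. Their median genomic span was 8812 bases, against 10995 over all. Of the 508, 159 (31.3%) were listed in all 4 libraries, against 25.2% of all circRNAs. A total of 180 appeared in wild-type libraries alone, 53 in deletion libraries alone and 275 in both genotypes. These are 35.4% in wild type alone and 10.4% in the deletion alone, against 42.3% and 10.7% of all circRNAs. Most were rare, with 328 under 10 reads in every library.

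The families differed in how many of their genes gave a circRNA. Of the annotated protein-coding genes of each family, a circRNA was listed for 23 of 36 Fbxo genes (63.9%), 19 of 37 Klhl genes (51.4%), 38 of 83 Rnf genes (45.8%) and 8 of 18 Fbxl genes (44.4%). The share was lower for Trim with 20 of 68 (29.4%), Fbxw with 7 of 24 (29.2%) and Asb with 3 of 18 (16.7%). The number of hosts did not always track the number of reads, with Fbxo and Fbxw departing most. Fbxo, with 23 hosts, held between 5.06% and 7.69% of the ligase reads in a library, and Fbxw, with 7 hosts, held between 17.0% and 21.6%. Rnf held the largest share, between 37.8% and 40.8%. Klhl held between 9.29% and 10.6%, Trim between 10.3% and 11.4%, Fbxl between 6.48% and 9.79%, and Asb between 6.09% and 7.09%.

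Reads were concentrated in few hosts. The 12 hosts with the largest share of junction reads, averaged over the libraries with equal weight, held between 62.4% and 65.4% of the ligase reads of a library, while 28 hosts had under 10 reads over all libraries together. A host held 3 circRNAs at the median, 43 hosts held a single one, and Trim37, a centriole and peroxisome ligase, held 41. Values in the following sentences are junction reads in the order wild type at P12 and P13, then deletion at P12 and P13. Because the wild-type libraries are the deeper ones, raw reads are not to be compared across genotypes, and the scaled counts given later serve for that.

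Among the RING genes, Rnf169, whose protein binds ubiquitinated chromatin at DNA double-strand breaks, had 1046, 1224, 467 and 493 reads. Rnf150, a transmembrane RING protein, had 779, 956, 350 and 426. Rnf216, which encodes a RING-between-RING ligase, had 445, 584, 180 and 177. These totals rested on different numbers of circRNAs, since a single circRNA took 88.6% of the reads of Rnf169, 57.0% of Rnf150 and 69.8% of Rnf216. Rnf114 had 400, 504, 199 and 193 reads, and Rnf214 had 301, 437, 177 and 230. Rnf214 was the most divided of the 12 leading hosts, with 34.3% of its reads in its leading circRNA of 14. In the Trim family, Trim33, a nuclear ligase that acts on Smad4, had 445, 579, 198 and 200 reads. Trim24, a nuclear relative of Trim33 that binds modified histones and acts on p53, had 255, 237, 129 and 200 reads.

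Among the cullin adaptors, Fbxw4, known in the mouse from the limb mutant dactylaplasia, was the leading host of all with 1254, 1640, 805 and 790 reads over 11 circRNAs. Fbxw7, which recruits cyclin E, Myc and Notch for degradation, had 348, 398, 144 and 163. Fbxl17, which removes wrongly paired BTB proteins, had 619, 700, 176 and 218. Fbxw7 and Fbxl17 both serve cullin 1. Asb3 had 681, 827, 308 and 411 reads, 96.0% of them in a single circRNA. Klhl8, the leading Kelch gene, had 444, 439, 194 and 208 reads, and Fbxo42, the leading Fbxo gene, had 150, 169, 134 and 221. The Fbxo42 protein carries Kelch repeats and acts on p53.

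**Figure D1:**
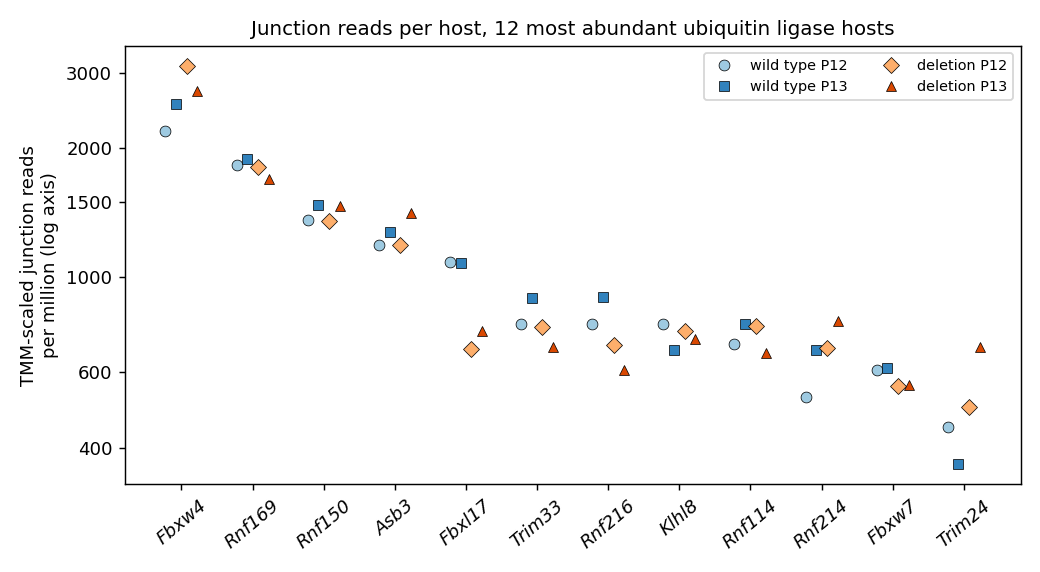
Junction reads of the 12 leading ubiquitin ligase hosts on a log axis, scaled to reads per 1000000 of the TMM effective library size, with 1 point per library. Fbxw4 lies highest in all 4 libraries, between 2195 and 3114, and Fbxl17 lies lower in both deletion libraries (681 and 750) than in both wild-type libraries (1083 and 1081).

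The 10 most abundant circRNAs came from 9 of these hosts and are given with coordinates as deposited, the genome build being not given in the sources used here. The first was Rnf169 at chr7:99935162-99955540, with 910, 1089, 414 and 448 junction reads. The second was Fbxw4 at chr19:45630865-45640521, with 783, 943, 418 and 387. Asb3 at chr11:31055458-31061586 followed with 660, 781, 302 and 395. All were exonic and abundant in every library. The deposited junction ratio, which sets 2 times the junction reads against the same number plus the non-junction reads at those splice positions, was between 0.928 and 0.939 for the Rnf169 circRNA. It was between 0.897 and 0.904 for the Fbxw4 circRNA and between 0.941 and 0.954 for Asb3, so that most reads at these sites crossed the back-splice in every library.

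Next came Rnf150 at chr8:82990347-83006412 with 438, 529, 206 and 258 reads and Fbxl17 at chr17:63471408-63490887 with 540, 625, 160 and 199. A second Fbxw4 circRNA, at chr19:45635735-45640521, had 312, 326, 232 and 260. Fbxw4 was the only host with a pair of circRNAs among the 10. The remaining 4 were Trim33 at chr3:103310309-103311513 (364, 497, 154 and 162), Rnf114 at chr2:167507047-167511326 (265, 351, 149 and 150), Rnf216 at chr5:143090120-143090929 (324, 411, 111 and 122) and Klhl8 at chr5:103885907-103886290 (285, 291, 134 and 144). A separate Klhl8 entry ends 3 bases before the last of these (72, 62, 39 and 30 reads).

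The junction ratio of ligase circRNAs had a higher median than that of all circRNAs, a difference that was not tested. Of the circRNAs with at least 20 junction reads in every library, 38 were ligase circRNAs and 2193 were circRNAs of any host. The median junction ratio of the 38 was 0.752, 0.736, 0.741 and 0.722 in the order of libraries, against 0.624, 0.634, 0.629 and 0.627 for the 2193. The order was the same in each library. Pooled per host over all its circRNAs, which counts non-junction reads again where circRNAs share a splice site, the median over 34 hosts was 0.348, 0.356, 0.440 and 0.394.

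The genotypes were compared over both days with edgeR's quasi-likelihood test on junction counts, with day as a term, TMM scaling and Benjamini-Hochberg adjustment over every circRNA tested. Of the 508 ligase circRNAs, 130 had the required 10 reads in 2 libraries. In the deletion libraries 4 of these were higher and 4 lower at an adjusted p under 0.05 (3.08% each way), against a background of 5.03% of 8785 circRNAs higher and 3.59% lower. The ligase circRNAs therefore did not stand out by their share of calls. Their median log2 difference was -0.16, against -0.08 over all tested. At an unadjusted p under 0.05, 10 were higher (7.69%) and 18 lower (13.8%), against 11.1% and 9.49% of all circRNAs. DESeq2 called 4 higher and 1 lower, but it returned no adjusted p for 80 of the 130. Its calls over all circRNAs were not counted. The size of every difference, and for some calls its direction, rests on how the libraries are scaled to one another. With the authors' SRPBM scaling, which divides reads by a constant per library, the median genotype difference of all tested circRNAs moves to -1.54 on the log2 scale, so that differences below are relative to the bulk of circRNAs.

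The circRNA called higher with the smallest p was from Fbxo42, at chr4:141167713-141180532. It had 133, 145, 123 and 205 junction reads, which are 233, 224, 476 and 705 reads per 1000000 of the TMM effective library size (scaled reads). Both deletion libraries lay above both wild-type libraries. The log2 difference was 1.35 ± 0.19 (SE; adjusted p = 2.16e-04, edgeR's quasi-likelihood test), and it passed without any 1 of the 4 libraries. In such a fit genotype is the only term, and the genotype left with 1 library is assumed to vary like the other, so it gives a weak check. Under SRPBM scaling its sign turned, at -0.11.

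Klhl18 showed the largest difference among the higher calls. Klhl18 is a cullin 3 adaptor that in mouse photoreceptors directs the degradation of Unc119, a protein of light adaptation. Its circRNA at chr9:110429946-110432538 had 16, 13, 38 and 26 reads, or 28.0, 20.1, 147 and 89.5 scaled reads, with no overlap of the genotypes. The log2 difference was 2.27 ± 0.41 (SE; adjusted p = 0.00179, edgeR), and it too passed without any 1 library. The junction ratio at its splice sites was 0.154 and 0.110 in the wild-type libraries against 0.535 and 0.456 in the deletion. This circRNA took 7.17% and 4.96% of the Klhl18 junction reads in the wild-type libraries against 30.4% and 23.9% in the deletion. The leading circRNA of the gene, at 110436011 to 110439058, had 129, 133, 37 and 44 reads and did not pass (adjusted p = 0.191, edgeR). Under SRPBM scaling the higher circRNA kept its sign at 0.82 and no longer passed (adjusted p = 0.109, edgeR).

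The circRNA of Rnf214 at chr9:45896085-45900256 had 36, 37, 51 and 55 reads, or 63.0, 57.1, 197 and 189 scaled reads. The genotypes were far apart and the days close. Its log2 difference was 1.68 ± 0.28 (SE; adjusted p = 7.96e-04, edgeR), it passed without any 1 library, and its junction ratio was 0.190 and 0.216 in the wild-type libraries against 0.410 and 0.337 in the deletion. Under SRPBM scaling it was 0.23 and did not pass (adjusted p = 0.481, edgeR). The leading Rnf214 circRNAs, which start at 45890804, did not pass. They had 92, 149, 52 and 100 reads (to 45900256) and 90, 153, 43 and 54 reads (to 45898491).

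The fourth higher call was the second Fbxw4 circRNA, at chr19:45635735-45640521. Its scaled reads were 546, 503, 898 and 895, and the junction ratio 0.493, 0.436, 0.574 and 0.604, so both deletion libraries lay above both wild-type libraries in either measure. The log2 difference was 0.77 ± 0.15 (SE; adjusted p = 0.00305, edgeR). Without wild type P13 it was 0.57 with an adjusted p of 0.0659 (edgeR), and under SRPBM scaling its sign turned, at -0.69.

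Of the lower calls, whose sign SRPBM scaling cannot turn because it moves all circRNAs downward, the leading Fbxl17 circRNA had 945, 965, 619 and 685 scaled reads, again without overlap. The log2 difference was -0.55 ± 0.15 (SE; adjusted p = 0.0248, edgeR), and -0.47 with an adjusted p of 0.102 (edgeR) without deletion P12. The junction ratio hardly moved, between 0.925 and 0.942. Fbxl5, the iron-sensing F-box protein that directs the degradation of iron regulatory protein IRP2, gave a circRNA at chr5:43758222-43773659 with 268, 332, 61 and 110 reads, or 469, 513, 236 and 378 scaled reads. Deletion P12 was the lowest of the 4. Its log2 difference was -0.69 ± 0.19 (SE; adjusted p = 0.0304, edgeR), and it was -0.36 with an adjusted p of 0.347 (edgeR) without deletion P12; DESeq2 gave an adjusted p of 0.115.

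Rnf169 gave the next lower call with a circRNA at chr7:99924296-99955540 that shares its end with the leading one. It had 79, 92, 20 and 15 reads, or 138, 142, 77.4 and 51.6 scaled reads. The log2 difference was -1.13 ± 0.32 (SE; adjusted p = 0.0337, edgeR). The call was lost without wild type P12 (-1.27, adjusted p = 0.0576), wild type P13 (-1.24, adjusted p = 0.0662) or deletion P13 (-0.84, adjusted p = 0.174), all by edgeR, and DESeq2 gave -1.14 with an adjusted p of 0.224. The leading Rnf169 circRNA, with 10 times as many reads or more in every library, was far from passing (adjusted p = 0.845, edgeR).

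**Figure D2:**
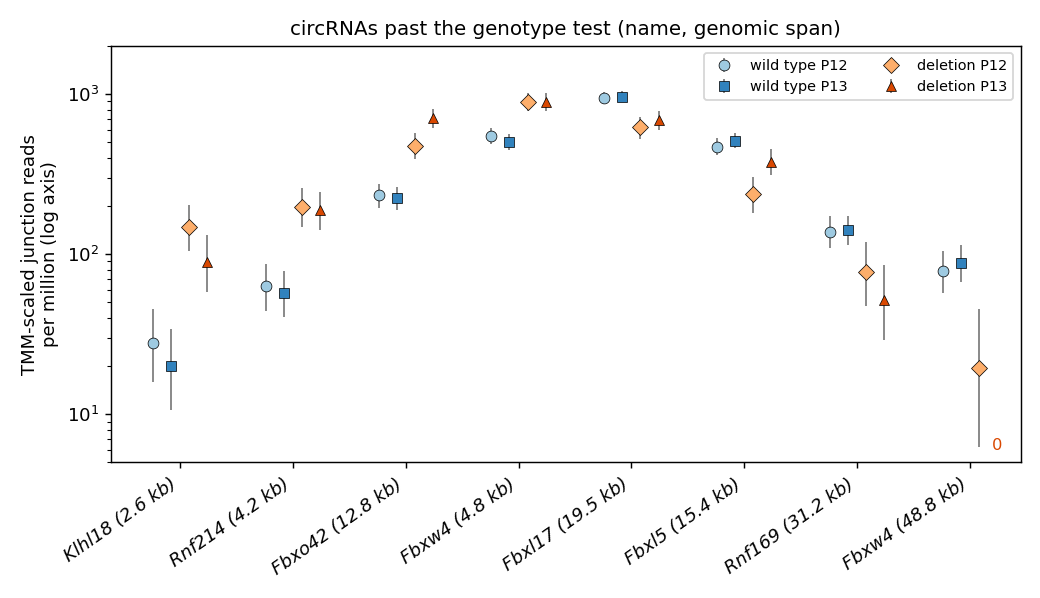
Scaled junction reads per 1000000 of the 8 ubiquitin ligase circRNAs past the genotype test, 1 point per library on a log axis, with 95% counting intervals. The 4 higher ones (Fbxo42, Rnf214, Klhl18, Fbxw4) and the 4 lower ones (Fbxw4, Fbxl17, Fbxl5, Rnf169) have values in the deletion libraries that all lie on 1 side of the wild-type values, although the counting intervals of some overlap, as for Fbxl5 and the Rnf169 circRNA.

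**Figure D3:**
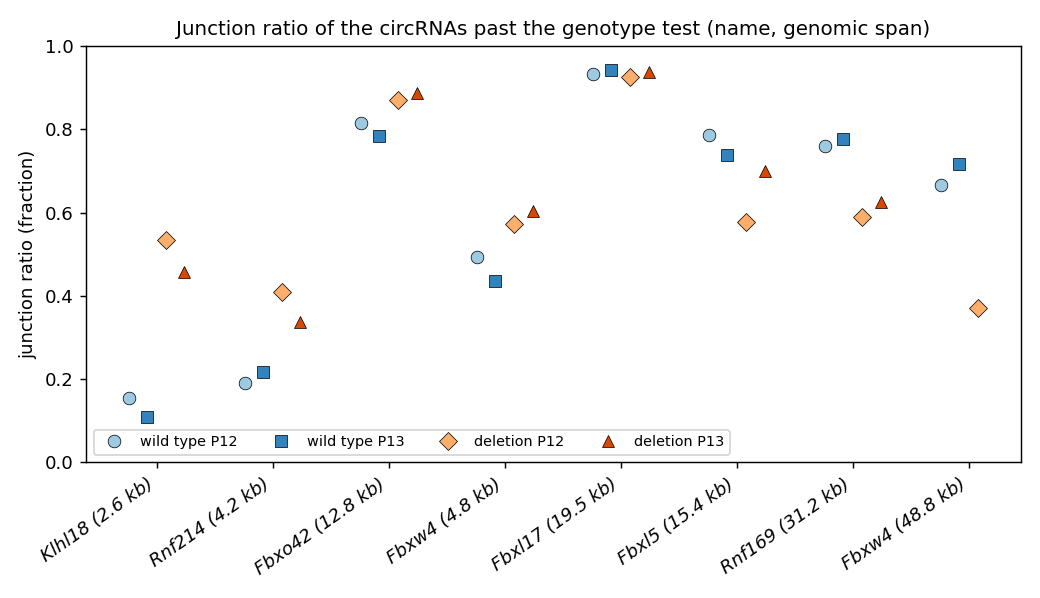
Junction ratio of the same 8 circRNAs in each library. For Klhl18 it is 0.154 and 0.110 in wild type against 0.535 and 0.456 in the deletion, and for Fbxl17 it stays between 0.925 and 0.942.

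Fbxw4 was the only host that held both a higher and a lower circRNA. The lower one, at chr19:45591729-45640521, reaches farthest from the shared end. It had 45, 57, 5 and 0 junction reads, and the wild-type libraries lay above both deletion libraries. The log2 difference was -3.17 ± 0.71 (SE; adjusted p = 0.0110, edgeR), a size that depends on the prior count because 1 library is at 0. It could not be tested without either wild-type library, for then too few libraries hold 10 reads, and DESeq2 returned no adjusted p. A circRNA ending inside the gene, at 45630865 to 45636448, had 66, 73, 13 and 15 reads and narrowly missed the threshold (adjusted p = 0.0503, edgeR). Another at 45635735 to 45636448 had 29, 30, 5 and 3 reads (adjusted p = 0.0940, edgeR). The leading Fbxw4 circRNA did not pass (adjusted p = 0.866, edgeR).

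A further Fbxw4 circRNA was absent from a single table. Of class intron, at chr19:45624376-45640521 and spanning 16146 bases, it was unlisted in wild type P12 but had 172 reads at P13 in that genotype and 127 and 121 reads in the deletion libraries. Its junction ratio was 0.945, 0.934 and 0.924 where listed, so it was neither rare nor a minor product of its splice sites. It took 10.5%, 15.8% and 15.3% of the Fbxw4 reads in those 3 libraries. Wild type P12 was not poor in Fbxw4 reads, since the 6 other circRNAs that share the end 45640521 were all listed there with 1153 reads, against 1353, 658 and 651 in the other libraries. Of all other circRNAs, whatever their host, 0 had a start within 100 bases of 45624376. Apart from those that share the end, entries farther away were not searched. In wild type P13 its reads came from both lanes of that library. If wild type P12 held at most 3 reads, it was at least 50.6-fold higher in wild type P13 and at least 93.6-fold higher in deletion P12. These and the other bounds against an unlisted circRNA do not hold where the caller dropped more reads than that. Whether the molecule or the caller differed in wild type P12 was not tested.

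**Figure D4:**
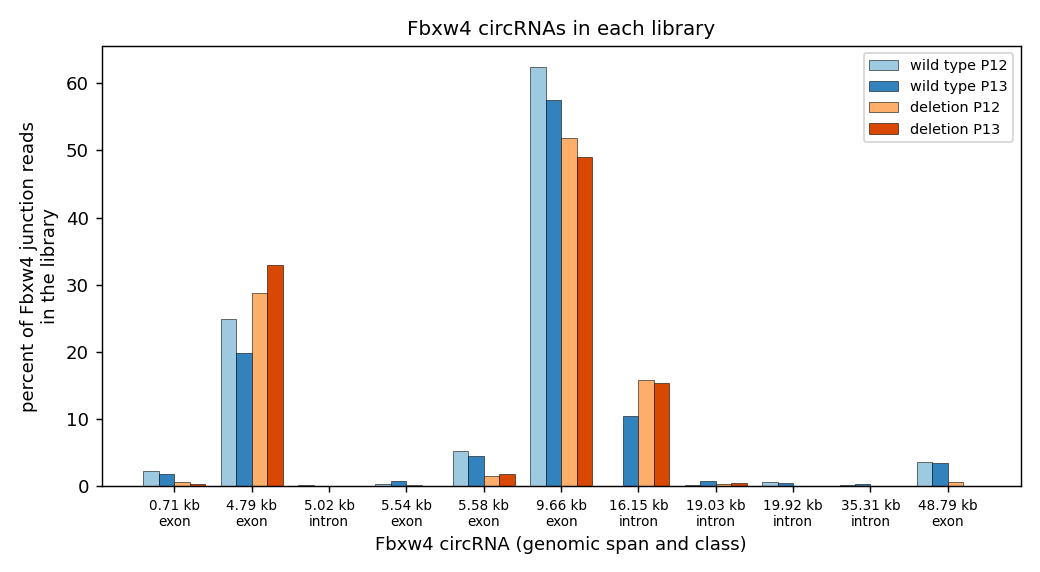
Share of the Fbxw4 junction reads of a library (percent) taken by each of its 11 circRNAs, ordered by genomic span, with 1 bar per library. The intronic circRNA spanning 16146 bases has no bar in wild type P12 and takes 10.5%, 15.8% and 15.3% in the other libraries, and the longest one (45, 57, 5 and 0 junction reads) is near 0 in the deletion.

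Other abundant ligase circRNAs were also missing from a single table. Of the 84 ligase circRNAs with 10 reads or more in 3 libraries, 3 (3.57%) were unlisted in the remaining one, against 131 of 5778 (2.27%) over all circRNAs. The other two were from Rnf150, at chr8:83036025-83042782 with 47, 58, 0 and 39 reads, and from Klhl2, an actin-binding cullin 3 adaptor, at chr8:64779698-64834568 with 15, 25, 0 and 23. Both were missing from deletion P12, the library with the fewest reads.

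Junction reads were then summed per host and tested in the same way. Of the 118 hosts, 63 could be tested, and 4 were higher in the deletion libraries (6.35%) and 3 lower (4.76%), against 7.44% and 6.59% of all 3899 hosts. At an unadjusted p under 0.05 the numbers were 6 (9.52%) and 7 (11.1%), against 11.9% and 12.7% of all hosts. DESeq2 called only Fbxo42, and it returned no adjusted p for 28 of the 63 hosts. Under SRPBM scaling the median of all hosts moves to -1.57, a common shift larger than any of the higher differences, so that the signs there follow from the scaling.

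Fbxo42 was higher by 1.34 ± 0.18 on the log2 scale (SE; adjusted p = 5.66e-11, edgeR), and -0.19 under SRPBM scaling. Its 150, 169, 134 and 221 junction reads are 263, 261, 518 and 760 scaled reads. The Fbxo42 circRNA called above held 89.9% of them, so the host call largely repeats that one. DESeq2 gave the host an adjusted p of 0.00218. In the edgeR host fit the median prior degrees of freedom were infinite. The host p-values thus rest on a spread pooled over hosts, not on the spread of each host. In the circRNA fit the median prior degrees of freedom were 16.3, beside 1 residual degree of freedom. The circRNA p-values given above thus also rest largely on a spread pooled over circRNAs. Trim24 was higher by 0.61 ± 0.17 (SE; adjusted p = 0.00608, edgeR), with 446, 366, 499 and 688 scaled reads, most of the difference being at P13. The Trim24 call was lost without wild type P13 (0.43, adjusted p = 0.325) or deletion P13 (0.38, adjusted p = 0.220), both by edgeR, and its sign turned under SRPBM scaling (-0.92).

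The Fbxw4 host total was higher by 0.36 ± 0.11 (SE; adjusted p = 0.00866, edgeR), with 2195, 2532, 3114 and 2718 scaled reads. This call rests on the circRNA unlisted in wild type P12. Without that circRNA the difference was 0.20 with an adjusted p of 0.244 (edgeR). It was 0.23 (adjusted p = 0.365) without wild type P12, 0.26 (adjusted p = 0.195) without deletion P12, both by edgeR, and -1.16 under SRPBM scaling. Fbxw11, which recruits beta-catenin and the NF-kappaB inhibitor for degradation, had 37, 41, 36 and 37 junction reads, or 64.8, 63.3, 139 and 127 scaled reads. Its difference was 1.11 ± 0.39 (SE; adjusted p = 0.0323, edgeR) and -0.41 under SRPBM scaling. The call was lost without wild type P12 (1.10, adjusted p = 0.133), wild type P13 (1.05, adjusted p = 0.152) or deletion P12 (1.05, adjusted p = 0.0898), all by edgeR.

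Of the lower hosts, Fbxl17 had a log2 difference of -0.54 ± 0.14 (SE; adjusted p = 0.00256, edgeR), with 1083, 1081, 681 and 750 scaled reads. It passed without any 1 library, and DESeq2 gave an adjusted p of 0.213. Fbxl5 had 529, 588, 286 and 482 scaled reads and a difference of -0.50 ± 0.18 (SE; adjusted p = 0.0418, edgeR). The call was lost without wild type P12 (-0.58, adjusted p = 0.153), wild type P13 (-0.44, adjusted p = 0.350) or deletion P12 (-0.15, adjusted p = 0.664), all by edgeR. Fbxo33, with 21, 25, 2 and 0 junction reads, had a difference of -3.25 ± 1.20 (SE; adjusted p = 0.0486, edgeR), and -2.17 with an adjusted p of 0.0836 (edgeR) without deletion P13. It could not be tested without either wild-type library, and DESeq2 returned no adjusted p. Trim24, Fbxw11 and Fbxo33 passed as hosts with no circRNA of theirs passing. Conversely Rnf214, Klhl18 and Rnf169 passed with 1 circRNA each and not as hosts.

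The genotypes were also compared at each day as pairs of single libraries, which allows no test. A circRNA with at least 20 reads over both libraries was called where the ratio of scaled reads was at least 2 or at most 0.5 and its exact 95% interval left out 1. At P12, 13 of 113 ligase circRNAs were higher in the deletion (11.5%) and 14 lower (12.4%), against 10.9% and 10.6% of all circRNAs. At P13, 11 of 119 were higher (9.24%) and 8 lower (6.72%), against 10.3% and 9.58%. The shares were near those of all circRNAs in each case.

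Of the 100 ligase circRNAs measured on both days, 3 were called higher on both, those of Fbxo42, Klhl18 and Rnf214 given above. Klhl18 was 5.25 times its wild-type level at P12 (95% interval 2.86 to 10.1) and 4.46 times at P13 (2.21 to 9.45). Rnf214 was at 3.31 times at P13 (2.14 to 5.17) and Fbxo42 at 3.15 times (2.53 to 3.92). On the log2 scale Rnf214 was at 1.65 at P12 and 1.73 at P13. Fbxo42 was at 1.03 and 1.66, so at P12 it only just reached the required ratio of 2. Another 4 were called lower on both days, which were Fbxo33 and 3 Fbxw4 circRNAs, and 0 were called in opposite directions. Over all 6470 circRNAs measured on both days, 4.81% were called higher on both, 3.85% lower on both and 0.247% in opposite directions, so the ligase counts were near the background. Among the 94 listed in all libraries, called or not, 30 lay above 1 on both days (31.9%), 33 below 1 on both days (35.1%) and 31 on opposite sides (33.0%), against 33.7%, 33.5% and 32.9% of all circRNAs listed in all libraries.

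**Figure D5:**
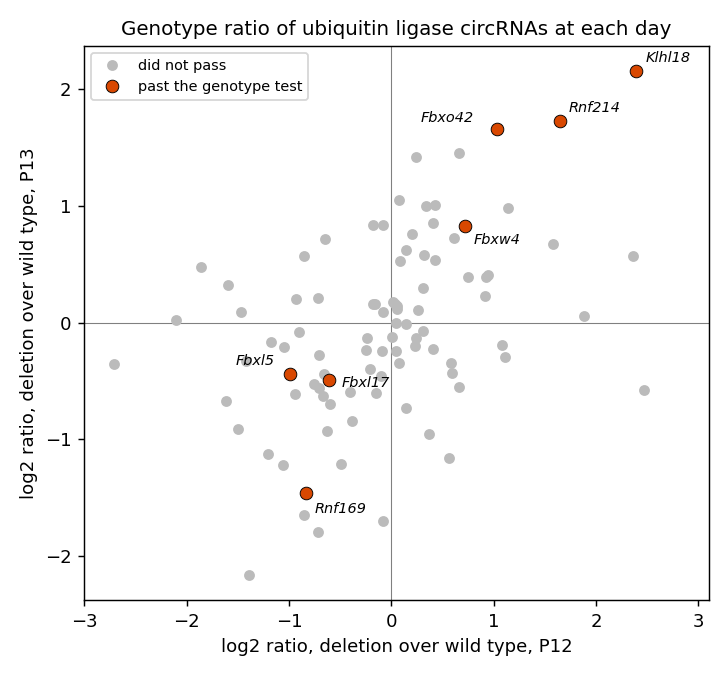
Log2 ratio of scaled reads, deletion over wild type, at P12 (x axis) and P13 (y axis) for the 94 ubiquitin ligase circRNAs measured on both days and listed in all 4 libraries. Klhl18, Rnf214, Fbxo42 and Fbxw4 lie in the upper right and Rnf169, Fbxl5 and Fbxl17 in the lower left, and 31 circRNAs lie on opposite sides on the 2 days.

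The other large ratios were called on 1 day. At P12, besides the Fbxw4 circRNA that wild type P12 does not list, the large ratios upward rested on few reads. A Fbxw11 circRNA (chr11:32708188-32711997) had 6 reads in wild type and 17 in the deletion, a ratio of 6.26 (95% interval 2.36 to 19.4). A Rnf216 circRNA (chr5:143015624-143028043) had 6 and 15 reads, a ratio of 5.53 (2.03 to 17.4). The wide intervals show how little these ratios are fixed by the counts.

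Downward at P12, circRNAs were unlisted in deletion P12. Klhl11, a cullin 3 adaptor, had 24 reads in wild type and 0 in the deletion, at least 3.62-fold lower against a floor of 3 reads. The Rnf150 circRNA had 47 and 0 reads, at least 7.09-fold lower. A Rnf216 circRNA (chr5:143089743-143090929) had 22 and 0 reads, at least 3.32-fold lower. Klhl8 differed in being listed in both libraries. Its circRNA at chr5:103874203-103876289 had 29 and 2 reads, a ratio of 0.152 (0.0176 to 0.603).

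At P13 the fourth ratio upward, after Klhl18, Rnf214 and Fbxo42, belonged to Klhl22, an adaptor for cullin 3. It had 13 reads in wild type and 16 in the deletion, a ratio of 2.74 (1.24 to 6.20), which turned to 0.929 under SRPBM scaling. Downward, Fbxo33 had 25 and 0 reads, at least 3.74-fold lower, and both Fbxw4 circRNAs named here were ones already low at P12. The long Fbxw4 circRNA had 57 and 0 reads, at least 8.53-fold lower. The one at 45635735 to 45636448 had 30 and 3 reads, a ratio of 0.223 (0.0435 to 0.717). Trim37, the host with most circRNAs, had 1 of them (chr11:87140485-87149363) with 31 and 4 reads, a ratio of 0.288 (0.0737 to 0.813).

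Between the days, no ligase circRNA and no ligase host passed. With edgeR's quasi-likelihood test, 0 circRNAs and 0 hosts were called in either direction, against 0.0114% of all circRNAs in each direction and 0.0256% of all hosts higher and 0.0769% lower at P13. DESeq2 called 0 as well. At an unadjusted p under 0.05, edgeR gave 2 circRNAs higher at P13 (of Klhl7 and Rnf214), 1 lower (of Rnf180), 1 host higher and 0 hosts lower. These are 1.54% and 0.77% of the tested ligase circRNAs, against 1.80% and 1.78% of all circRNAs. For hosts they are 1.59% and 0%, against 2.36% of all hosts each way, so none of these shares exceeded the background. Without wild type P12, 2 circRNAs passed as higher at P13, of Klhl2 and Rnf150. Without deletion P12 the Fbxw4 circRNA unlisted in wild type P12 passed. All 3 are circRNAs with a table from which they are missing, and each passed in the fit where the single remaining P12 library was the one that does not list it.

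As pairs of single libraries, 7 of 146 ligase circRNAs were higher at P13 in wild type (4.79%) and 5 lower (3.42%), against 4.48% and 4.62% of all circRNAs. In the deletion 5 of 83 were higher (6.02%) and 3 lower (3.61%), against 4.0% and 4.19%. A circRNA of Klhl7, a cullin 3 adaptor gene in which human variants cause retinitis pigmentosa, was called higher at P13 in both genotypes. Located at chr5:24134964-24141293, it had 11 reads at P12 and 30 at P13 in wild type (ratio 2.41, 1.17 to 5.32) and 7 and 29 in the deletion (ratio 3.68, 1.58 to 9.96). Its adjusted p for the day was 0.999 (edgeR). The leading Klhl7 circRNA, at 24126822 to 24141293, went from 73 to 54 reads in wild type and from 16 to 21 in the deletion, and was not called.

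The remaining day ratios in wild type rested on few reads, apart from the Fbxw4 circRNA that goes from unlisted to 172 reads. Fbxo38 had 3 reads at P12 and 22 at P13, a ratio of 6.47 (1.94 to 33.8). Fbxl20, a synaptic F-box protein, had 5 and 29 reads, a ratio of 5.12 (1.96 to 16.9). Fbxo47 had 6 and 23 reads, a ratio of 3.38 (1.34 to 10.2). The 4 named as lower came from RING or Kelch genes. Rnf220 had 18 and 4 reads, a ratio of 0.196 (0.0483 to 0.595), and Klhl1, an actin-binding Kelch protein of neurons, had 17 and 5, a ratio of 0.259 (0.0748 to 0.733). Rnf180 had 36 and 12 reads, a ratio of 0.294 (0.139 to 0.578), and Rnf130 had 19 and 7, a ratio of 0.325 (0.115 to 0.807).

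In the deletion the largest ratios upward belonged to the circRNAs unlisted in deletion P12. That of Rnf150 went from 0 to 39 reads, at least 11.6-fold higher, and that of Klhl2 from 0 to 23, at least 6.82-fold higher. Rnf145, a ligase of sterol metabolism, had a circRNA with 5 reads at P12 and 21 at P13, a ratio of 3.74 (1.37 to 12.7). The lower ones had been among the higher ones by genotype at P12. The Fbxw11 circRNA had 17 and 4 reads, a ratio of 0.209 (0.0512 to 0.642). The Rnf216 circRNA at 143015624 to 143028043 had 15 and 6 reads, a ratio of 0.356 (0.113 to 0.970), and in wild type it had gone the other way, from 6 to 20. Fbxo44 had 24 and 11 reads, a ratio of 0.408 (0.180 to 0.864). Both comparisons use deletion P12, so these values are not independent of one another.

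Genes that work with these ligases were described from a list of 80 (cullins, Skp1 and other adaptors, the NEDD8 pathway, signalosome subunits, E1 and E2 enzymes, and F-box or Kelch genes with other symbols), of which 44 hosted 198 circRNAs. Of 41 tested circRNAs 3 were higher and 2 lower in the deletion, and of 23 tested hosts 5 were higher and 2 lower, by edgeR's quasi-likelihood test. The background was 5.03% higher and 3.59% lower over all circRNAs and 7.44% and 6.59% over all hosts. No circRNA or host of the list passed for the day (0 and 0). Their median genotype log2 difference was 0.26 over circRNAs and 0.22 over hosts, against -0.08 and -0.05 over all tested. Cul4a, the cullin scaffold of the DDB1 ligases, had a circRNA at chr8:13136796-13142598 with 220, 150, 172 and 201 reads. It was higher by 1.18 ± 0.20 on the log2 scale (SE; adjusted p = 0.00118, edgeR), passed without any 1 library and by DESeq2, and was -0.28 under SRPBM scaling. Nae1, a subunit of the enzyme that activates NEDD8 for cullins, was higher as a host with 65, 80, 72 and 73 reads (1.21 ± 0.27, SE; adjusted p = 1.71e-04, edgeR), and was -0.31 under SRPBM scaling. Both Nae1 circRNAs that passed stayed positive under SRPBM scaling but no longer passed there. The circRNA at 104516129 to 104518263 (5, 8, 22 and 14 reads) was 1.13 under that scaling (adjusted p = 0.165, edgeR). The circRNA at 104517907 to 104519823 (14, 15, 22 and 26 reads) was 0.41 (adjusted p = 0.395, edgeR). The latter was lost without wild type P13 (adjusted p = 0.0519, edgeR), and the former could not be tested without either deletion library. Of the list members called by edgeR, DESeq2 passed only Cul4a, and it returned no adjusted p for either Nae1 circRNA. Skp1, the link between F-box proteins and cullin 1, was higher as a host with 90, 83, 65 and 83 reads (0.98 ± 0.26, SE; adjusted p = 0.00279, edgeR), and was -0.54 under SRPBM scaling. Without wild type P13 it did not pass (0.78, adjusted p = 0.170, edgeR).

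Of the E1 and E2 enzymes, Ube2k with 1050, 1114, 554 and 739 reads (0.46 ± 0.11, SE) and Ube2j1 with 24, 34, 28 and 33 (1.29 ± 0.42, SE) were higher as hosts, and both turned negative under SRPBM scaling (-1.07 and -0.23). The E1 gene Uba6 was lower as a host with 21, 29, 0 and 3 reads. A circRNA of Ube2w was lower with 71, 92, 21 and 11 reads, as was one of Kbtbd2, a Kelch gene, with 46, 82, 13 and 6. Kbtbd2 was lower as a host too. Ube2k, Ube2w and Kbtbd2 did not pass without wild type P13 (adjusted p = 0.0968, 0.0965 and, for the Kbtbd2 circRNA, 0.127, edgeR) or without deletion P13 (0.0836, 0.290 and 0.157). Ube2j1 did not pass without wild type P12 (adjusted p = 0.188), wild type P13 (0.0743) or deletion P13 (0.0637), and Uba6 not without deletion P12 (0.129), all by edgeR.

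Markers of eye cell types differed between the genotypes too. In bulk tissue, fewer cells of a type and less RNA per cell cannot be told apart. CircRNAs of 14 of 20 photoreceptor genes were listed (6 at 0 in all libraries), and their summed share of junction reads was 0.650% and 0.756% in the wild-type libraries against 0.922% and 0.887% in the deletion. In the genotype test 15 photoreceptor circRNAs were higher and 0 lower of 65, and under SRPBM scaling 8 of the 15 kept their sign and 7 turned. Of the 8, only the Sag circRNAs at 87828397 to 87834627 (adjusted p = 0.0140, edgeR) and 87831839 to 87837333 (adjusted p = 0.0473, edgeR) still passed. Of the 7, the Pde6a circRNA at 61262416 to 61286060 passed as lower (-0.72, adjusted p = 0.0316, edgeR). The background was 5.03% higher and 3.59% lower over all circRNAs. The called ones came from Sag, Rpgrip1, Impg2, Pde6a, Cngb3 and Prom1 alone. The median log2 difference of the 65 was 0.04, against -0.08 over all tested. Of 13 tested photoreceptor hosts 3 were higher (Sag, Pde6a and Pde6b) and 0 lower, against 7.44% and 6.59% of all hosts. The share of 7 lens genes of 11 (4 at 0) was 0.0836% and 0.103% in the wild-type libraries against 0.248% and 0.184% in the deletion. This higher share rested on the lens filament gene Bfsp1, with 320, 344, 658 and 564 of the list's 554, 781, 744 and 628 reads. Of 7 tested lens circRNAs 2 were higher and 0 lower, both from Bfsp1 (1 of the 2 turned sign under SRPBM scaling). The median log2 difference was -0.18 over the tested lens circRNAs and -0.30 over the tested lens hosts, against -0.08 and -0.05 over all tested. Not all genes of the lens list were higher, since the hosts Cryga (45, 158, 4 and 8 reads) and Prox1 (143, 223, 61 and 36 reads) were lower. Striated muscle genes, with 10 of 14 listed (4 at 0), held 0.217% and 0.223% in the wild-type libraries against 0.231% and 0.271% in the deletion. All 4 libraries thus held circRNAs from genes of this list, and whether these came from muscle was not tested. Genes of the pigment epithelium (8 of 10 listed) held between 0.0118% and 0.0220%, of Müller glia (4 of 6) between 0.00105% and 0.00302%, and of endothelium (6 of 8) between 0.00875% and 0.0167%. The endothelial gene Plxnd1, with 9, 5, 27 and 19 reads, was higher in the deletion as a circRNA (2.85 ± 0.52, SE; adjusted p = 0.00170, edgeR) and as a host. Under SRPBM scaling the circRNA difference was 1.42 and did not pass (adjusted p = 0.0546, edgeR). Of the muscle genes, 2 circRNAs of Dmd, the dystrophin gene, were higher of 36 tested, and 1 of them turned sign under SRPBM scaling. The part of cell composition in the ligase differences was not tested.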

How the data were processed

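For each circRNA the deposited tables give the junction read count and the non-junction read count of a library, in the column layout of CIRI per the file headers. The authors' junction ratio is a deposited fraction, and the authors' SRPBM is a deposited signal equal to the junction reads divided by a constant per library (between 9.10 and 12.1 reads per SRPBM), whose meaning was not given in the sources used here. The submitters' processing notes name BWA and DESeq2 without a role or version. Host identifiers were matched to RefSeq symbols (assembly GRCm38.p6, names only); between 99.83% and 99.85% matched. Ligase members and gene lists were chosen with earlier results of these data known.

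Counts were fitted with edgeR 4.0.16 (glmQLFit robust, TMM, genotype plus day, 4 libraries, 1 residual degree of freedom) over all circRNAs or hosts that reached 10 reads in 2 or more libraries, and with DESeq2 1.42.0 as an alternative. Pairs of single libraries were compared by exact conditional (Clopper-Pearson) 95% intervals. Scaled reads, for hosts too, are reads per 1000000 of the circRNA-level TMM effective library size. The scripts were tested on simulated data. Named were the 12 leading hosts, the leading host of each of the 7 families, the 10 leading circRNAs, all genotype calls and up to 4 pairwise calls in each direction, and genes of the partner list past the test. CircRNAs named beyond this rule (of Klhl18, Rnf214, Rnf169, Fbxw4 and Klhl7 beside a named one) were chosen after their values were seen. Whether counting used strand was not given in the sources used here.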

Additional observations from a re-analysis of the deposited data

Results flagged for a closer look

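A Rnf216 circRNA (chr5:143015624-143028043) moved in opposite directions from P12 to P13 in the genotypes. It had 6 and 20 junction reads in wild type, a ratio of 2.94 (95% counting interval 1.14 to 8.95), and 15 and 6 in the deletion, a ratio of 0.356 (0.113 to 0.970). The difference between the genotypes was not tested, since each group holds 1 library.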

How the results depend on the processing

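Depth limits these results: 130 of the 508 ligase circRNAs had enough reads to test. No paired analysis was possible because the labels give each group 1 library, with day already a term. With DESeq2 1 circRNA was lower (4 in the main test), 1 host higher (4) and 0 hosts lower (3). It returned no adjusted p for 80 of the 130 circRNAs and 28 of the 63 hosts. Under SRPBM scaling 0 circRNAs were higher and 81 lower, and 0 hosts higher and 50 lower; differences turned for Fbxo42 (-0.11) and Fbxw4 (-0.69) circRNAs and for the hosts Fbxo42 (-0.19), Trim24 (-0.92), Fbxw4 (-1.16) and Fbxw11 (-0.41), and the Klhl22 ratio at P13 was 0.929. Without the filter 8 circRNAs were lower and the host calls of Fbxw4 (adjusted p = 0.0545), Fbxw11 (0.0724) and Fbxo33 (0.0671) were lost (edgeR). Leaving out each library in turn, with genotype or day as the only term, gave 4 to 8 circRNAs higher and 2 to 12 lower, 2 to 4 hosts higher and 1 to 6 lower, and 0 to 2 circRNAs higher at P13. Pairwise at P12, SRPBM scaling gave 2 higher and 77 lower, and at P13 0 and 86. A minimum of 50 reads left 5 and 5 at P12, 6 and 3 at P13, 1 and 0 by day in wild type and 1 and 0 by day in the deletion. The junction ratio medians, pooled per host, became 0.752, 0.736, 0.741 and 0.722 over circRNAs with 20 reads. The cause of these changes was not tested, except that SRPBM scaling moves the median of all circRNAs to -1.54. The shares called over all circRNAs and hosts were not counted in these alternative settings. The ligase counts given for them therefore have no background and are not a result about ligases. All 15 genotype calls passed with DESeq2 size factors and with a minimum of 20 reads, and 12 without the filter. Alternatives chosen after seeing the data were the exon class alone, in which all 8 circRNA calls passed, and the host sums without the unlisted Fbxw4 circRNA.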
